A study of Bos taurus with 20 samples.

Results

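PLET1, DKK1 and FABP3 are 3 genes whose transcripts were more abundant in the endometrium of pregnant heifers, and none of them is on the list of interferon-stimulated genes used here. They were chosen by that difference in these samples, so the difference between pregnant and control animals is described here and not tested. Each of the 3 is represented by 1 clone with a single gene symbol among the 1536 clones of the 18KB array, a spotted cDNA array made from a subtracted library that favours transcripts raised in pregnancy. The array has 86 named genes. On the second array, 18KO, whose library favours the opposite direction, 0 clones carry any of the 3 symbols.

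The animals were Simmental heifers whose cycles had been synchronised with Cloprostenol, a prostaglandin analogue, and all were sampled on day 18. The 4 pregnant heifers (17 to 20 months old) had been inseminated with cryo-conserved sperm of 1 bull, and an intact conceptus was found and taken out of the uterus. The 6 control heifers (18 to 22 months old) had received the supernatant of centrifuged sperm from that bull, and had no conceptus. Tissue came from the intercaruncular endometrium of the caudal part of the ipsilateral horn, and cDNA made from each RNA was labelled with 33P and hybridised to both arrays. Animals are named here by group and animal number, and each is 1 sample.

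PLET1 is an epithelial surface protein which in the mouse marks progenitor cells of several epithelia and of the trophoblast. DKK1 is a secreted antagonist of Wnt signalling: it binds the co-receptors LRP5 and LRP6 and so keeps Wnt ligands from activating beta-catenin. FABP3, the heart-type fatty acid binding protein, carries long-chain fatty acids through the cytoplasm. Before attachment the ruminant conceptus lies free in the uterine lumen, takes up proteins and lipids that the endometrium secretes, and releases interferon tau, the pregnancy signal to which the endometrium responds. In the RefSeq annotation of assembly ARS-UCD2.0 the 3 are protein-coding genes, with gene identifiers 505518 for PLET1, 504445 for DKK1 and 281758 for FABP3. PLET1 lies there between PTS and NCAM1, DKK1 between MBL2 and PRKG1, and FABP3 between SERINC2 and ZCCHC17.

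The columns of the 18KB array differed in overall level. Column medians were 2.50 to 3.18 in pregnant and 1.39 to 1.90 in control animals, and over all clones the log2 fold change (pregnant minus control) had a median of 0.44. The columns of pregnant 426, pregnant 447 and control 427 held 0 values at or below an intensity of 0.01, against 9 to 16 such values in the other columns, and their 10th percentiles were 0.42 to 0.63, against 0.225 to 0.365 elsewhere. Of 24 trophoblast markers, 3 are named on the array (TKDP1, TKDP4 and IFNT2); their summed intensity was 1.44 to 41.7 in pregnant and 0.955 to 1.79 in control animals. Pregnant 316 (1.44) was below control 427 (1.79) and above the other 5 controls (0.955 to 1.16). The 18KO array names 1 marker of the trophoblast list, PTGS2, which was not higher in pregnant animals. Its intensity was 1.11 to 1.85 in pregnant and 0.58 to 7.60 in control animals (log2 fold change -0.47, not called). Of 12 stroma markers, 3 collagens are named on the 18KB array, and their sum was 107 to 436 in pregnant and 622 to 1415 in control animals. On the 18KO array 6 stroma markers are named, with sums of 69.5 to 275 in pregnant and 328 to 1086 in control animals. Log2 fold changes there were -2.44 to -1.73 for the collagens, -1.06 for FBLN1 and 1.52 for NR2F2. No marker of epithelium, smooth muscle, endothelium, leukocytes or red cells is named on the 18KB array; on the 18KO array the epithelial markers CLDN4 and CLDN10 summed to 19.6 to 33.4 in pregnant and 7.16 to 20.8 in control animals, with log2 fold changes of 1.96 for CLDN4 and -1.93 for CLDN10. The smooth muscle markers ACTA2 and MYLK summed there to 4.81 to 9.33 in pregnant and 14.7 to 33.3 in control animals. In tissue samples, more cells of a type and more RNA per cell cannot be told apart, and the part of these shifts in the values below was not tested.

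PLET1 had a log2 fold change of 6.83, against 4.03 for FABP3 and 3.37 for DKK1. Its spot intensity was 15.61 in pregnant 316, 14.81 in pregnant 426, 1.72 in pregnant 447 and 21.19 in pregnant 448. In controls it was 0.26 in 330, 0.03 in 404, 0.28 in 427, 0.10 in 434, 0.02 in 440 and 0.08 in 449. The groups did not overlap: pregnant 447 was well below the other 3 pregnant animals and above the brightest control, 427. On the log2 scale PLET1 averaged 3.26 ± 1.67 in pregnant (SD, n = 4) and -3.57 ± 1.56 in control animals (SD, n = 6), a difference of 6.83 ± 0.84 (standard error from limma). With values as reported, that was the highest fold change among the 1536 clones. Its size depends on how the lowest values are treated: all 6 controls lay under the 10th percentile of all values of the array, an intensity of 0.32, and raising every value to that level gave 4.90. With that floor PLET1 was no longer the highest clone. A clone of ISG15 had no value under 0.64, so its log2 fold change stayed at 5.76. Without pregnant 447, and with values as reported, the PLET1 difference was 7.66.

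DKK1 varied little among controls, from 0.15 to 0.29. Its intensity was 1.06 in pregnant 316, 2.24 in 426, 5.14 in 447 and 1.61 in 448. The controls had 0.26 (330), 0.15 (404), 0.29 (427), 0.16 (434), 0.21 (440) and 0.19 (449), so the groups did not overlap. The mean log2 intensity was 1.07 ± 0.97 in pregnant (SD, n = 4) and -2.29 ± 0.38 in control animals (SD, n = 6). The difference was 3.37 ± 0.39 (standard error from limma). All 6 controls were under 0.32, and with a floor there the difference was 2.72. It was 2.54 when the column medians were set equal, a step that took 0.83 off every log2 fold change of the array.

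FABP3 spread widely among controls, where the highest value was 11.7-fold the lowest. Pregnant 316 had 8.01, pregnant 426 had 11.26, pregnant 447 had 6.00 and pregnant 448 had 26.15. Among controls, 330 and 434 had 1.76 each and 404 had 1.23, while 449 had 0.47, 427 had 0.33 and 440 had 0.15. The dimmest pregnant animal was 3.41-fold above the brightest control. The log2 mean was 3.45 ± 0.92 in pregnant (SD, n = 4) and -0.58 ± 1.46 in control animals (SD, n = 6). The difference was 4.03 ± 0.68 (standard error from limma). Only 1 control, 440, lay under the 10th percentile, so a floor there changed the difference little, to 3.85; equal column medians gave 3.20.

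**Figure D1:**
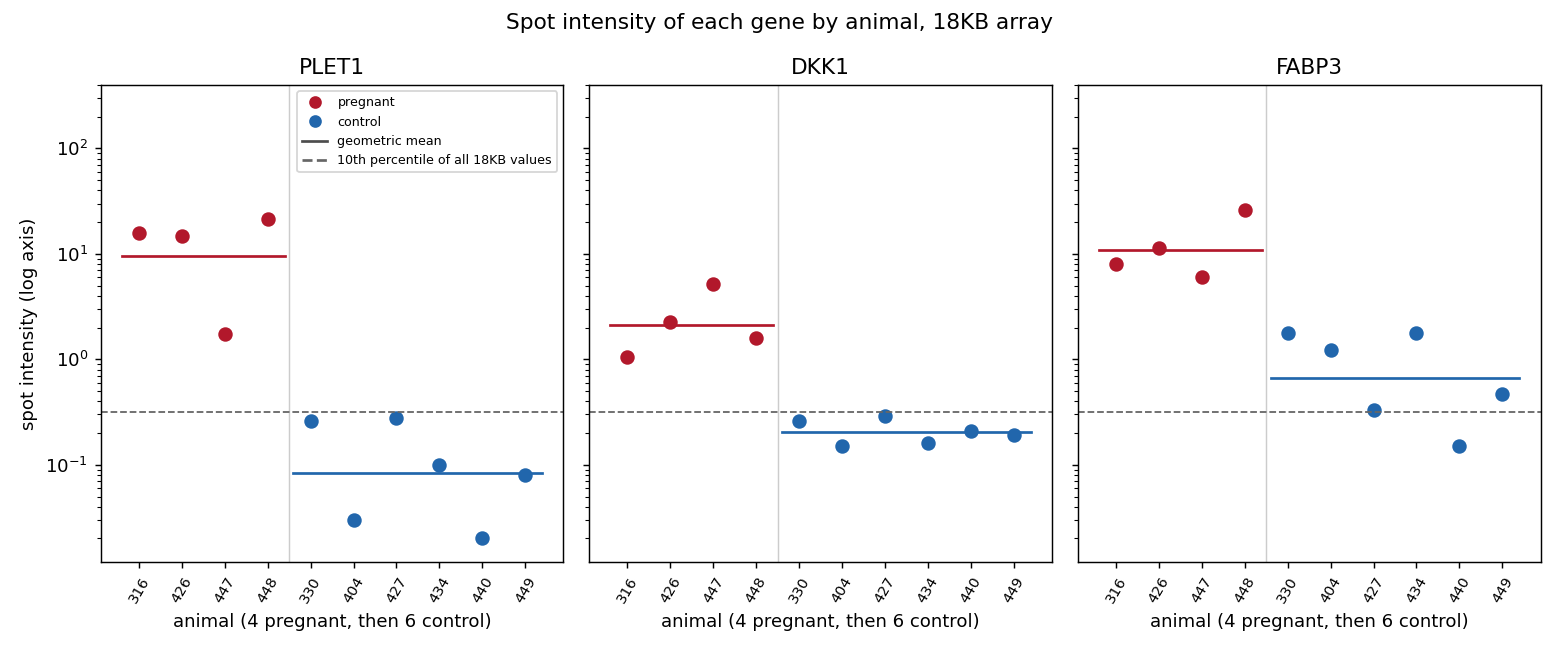
Spot intensity (log axis) of PLET1, DKK1 and FABP3 in each of 4 pregnant and 6 control heifers on the 18KB array; horizontal lines are the geometric means of each group, and the dashed line is the 10th percentile of all values of the array (0.32). The groups do not overlap for any of the 3 genes, PLET1 is lowest among pregnant animals in 447, and FABP3 spreads from 0.15 to 1.76 in controls.

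All 3 clones were called higher in pregnant animals (limma, adjusted p under 0.01, at least 2-fold), and in all 3 every pregnant animal exceeded every control. Over the whole array 20.5% of clones were called higher in this way and 26.7% had every pregnant animal above every control. Among the 86 named genes 90.7% were called in one direction or the other. Nothing is read from these shares, since the genes were picked for this very difference and since the authors sequenced chiefly clones that differed between these animals. Without the columns of pregnant 426, pregnant 447 and control 427, the log2 difference was 8.11 for PLET1, 4.23 for FABP3 and 2.78 for DKK1. By fold change FABP3 was at rank 36 and DKK1 at rank 62 of the 1536 clones.

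**Figure D2:**
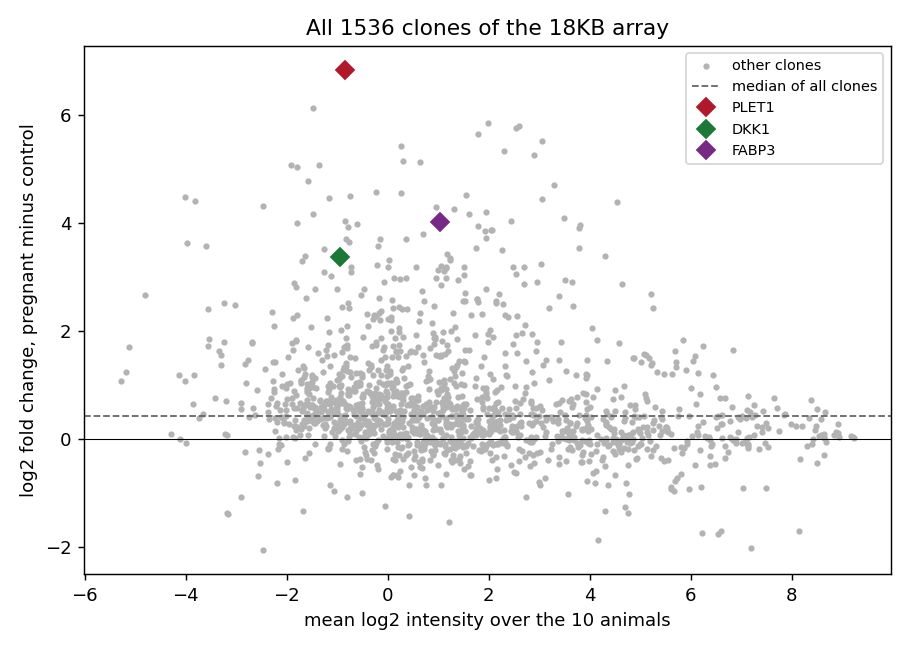
Log2 fold change (pregnant minus control) against mean log2 intensity over the 10 animals for each of the 1536 clones of the 18KB array; diamonds mark PLET1, DKK1 and FABP3, and the dashed line is the median of all clones, 0.44. PLET1, at 6.83, is the highest point, and FABP3 (4.03) and DKK1 (3.37) lie among other clones.

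The place of a spot among the 1536 spots of its own column does not depend on how that column was scaled. PLET1 stood at percentile 34.4 of its column in pregnant 447 and at 76.9 to 81.6 in the other pregnant animals, against 1.04 to 11.0 in controls. DKK1 stood at percentiles 30.6 to 60.9 in pregnant animals and 2.51 to 11.0 in controls. FABP3 stood at percentiles 63.6 to 84.4 in pregnant animals, and in controls at 52.4 in 434, 50.9 in 330, 41.9 in 404, 24.6 in 449, 4.52 in 440 and 4.33 in 427. By place, as by intensity, no control reached a pregnant animal in any of the 3 genes. The genes were picked for this difference, so the places describe it and add no support. The share of all clones set apart by place was not computed (26.7% were by intensity). Control 427, the control with the highest intensity of PLET1 and DKK1, had both spots below the 5th percentile of its column, an intensity of 0.34.

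**Figure D3:**
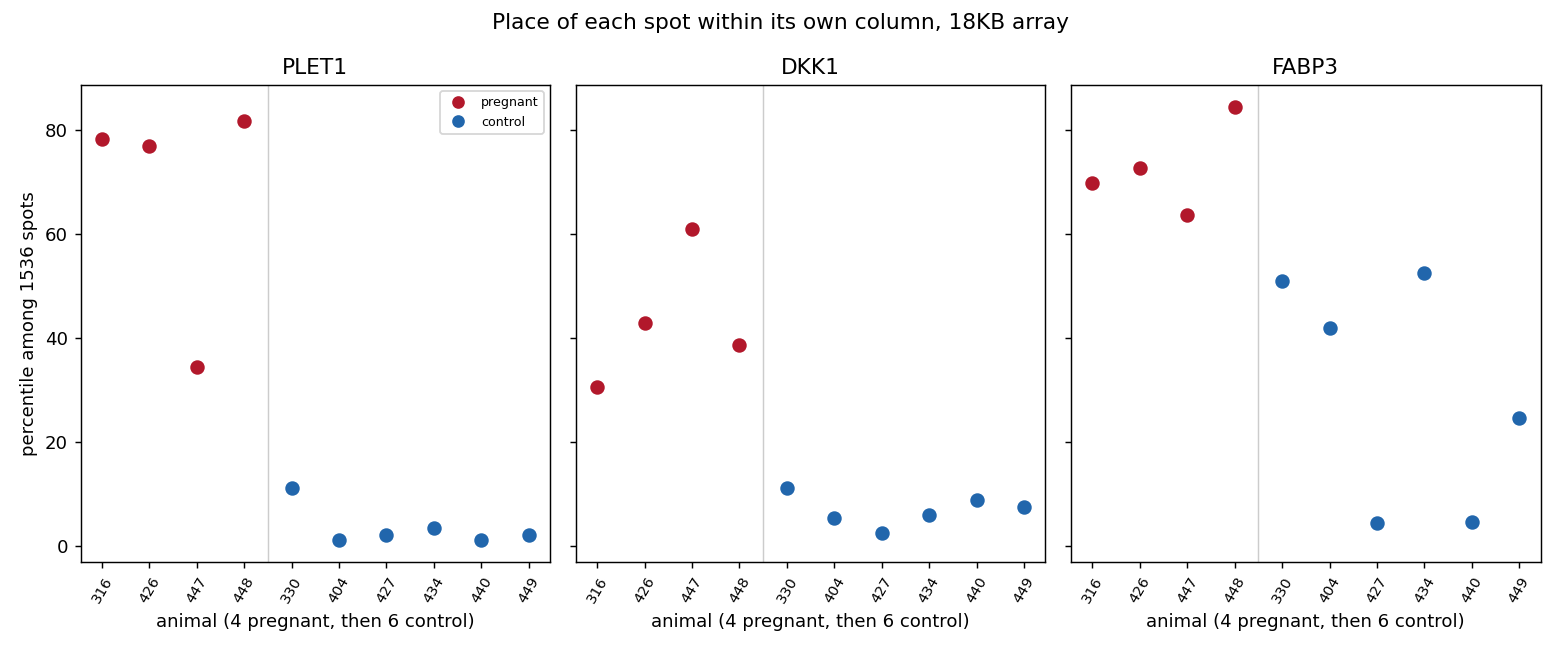
Percentile of the PLET1, DKK1 and FABP3 spots among the 1536 spots of the same column, for each pregnant and control heifer. Pregnant animals lie between 30.6 and 84.4 and controls between 1.04 and 52.4, and within each gene no control reaches a pregnant animal.

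The 3 genes did not rank the pregnant animals alike. PLET1 and FABP3 were highest in pregnant 448 and lowest in 447, whereas DKK1 was highest in 447 and lowest in 316. The highest pregnant value was 12.3-fold the lowest for PLET1, 4.85-fold for DKK1 and 4.36-fold for FABP3. With 4 pregnant animals no correlation among the genes was computed. Over the 6 controls, PLET1 and DKK1 had a Pearson r of 0.66 (two-sided exact permutation p = 0.176 over 720 pairings, 0.472 after Benjamini-Hochberg adjustment over the 3 pairs) and a Spearman rho of 0.60 (exact p = 0.242, adjusted 0.494). Without the 2 controls farthest from the median of PLET1, r was 0.88. PLET1 and FABP3 had an r of 0.36 (exact p = 0.453, adjusted 0.472) and a rho of 0.35 (exact p = 0.494, adjusted 0.494), and r was 0.32 without the 2 farthest controls. DKK1 and FABP3 had an r of -0.34 (exact p = 0.472, adjusted 0.472) and a rho of -0.35 (exact p = 0.494, adjusted 0.494), and r was -0.02 without the 2 farthest controls. With equal column medians r was 0.49 for PLET1 and DKK1, 0.30 for PLET1 and FABP3 and -0.52 for DKK1 and FABP3. Without the 2 farthest controls these became 0.73, -0.16 and 0.33. None of the 3 relations (0) passed in either setting, and the lowest unadjusted p was 0.176. PLET1 and DKK1 in these animals are at the bottom of the scale.

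Trophoblast transcripts ranked the pregnant animals in another order than PLET1, DKK1 or FABP3 did, though FABP3 differed only in the order of 316 and 447. The summed intensity of TKDP1, TKDP4 and IFNT2 was 41.7 in pregnant 448, 8.05 in 426, 4.30 in 447 and 1.44 in 316, against at most 1.79 in controls. Pregnant 316 had the lowest of the 4 sums; among controls 427 exceeded it, and the other 5 were at most 1.16. PLET1 was at 15.61, DKK1 at 1.06 and FABP3 at 8.01 in pregnant 316. PLET1 and FABP3 were highest in pregnant 448, the animal with the highest sum. Without 448 the log2 difference was 6.45 for PLET1 and 3.61 for FABP3. The part of trophoblast transcripts in the 3 differences was not tested.

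For each of the 3 genes, the named genes of the array with the most similar levels over the 10 animals were those with the smallest root mean square distance in log2 intensity after each gene was centred on its mean. This measure contains the difference between the groups. It is a description over 10 samples, and all genes of a sample share its hybridisation and its overall level. DKK1 was closest to 3 genes of the interferon response: IFIT3 at a distance of 0.44, MX2 at 0.46 and RIGI at 0.53, where the median over the named genes was 1.04. IFIT3 is an antiviral protein that interferons induce, MX2 is an antiviral GTPase, and RIGI is a cytoplasmic sensor of viral RNA. Their levels are means over 8 clones for IFIT3, 11 for MX2 and 8 for RIGI, whereas DKK1 is 1 clone. The log2 fold change of IFIT3 was 3.12 over its clones and 5.14 for its brightest clone. With the brightest clone MX2 had 3.53 and RIGI 3.19. IFIT3 ranked the pregnant animals as DKK1 did, with 3.86 in 447, 2.44 in 426, 1.74 in 448 and 1.36 in 316, while the controls had 0.166 to 0.597. The medians of these pregnant columns had that order too (3.18, 3.045, 2.71 and 2.495), and so did ISG15 and PENK. The order is therefore not particular to DKK1 and IFIT3. The controls differed between the genes: IFIT3 was at 0.597 in control 427 against at most 0.26 in the others, whereas DKK1 had 0.29 in 427 and 0.26 in 330.

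FABP3 was closest to PENK, the precursor of enkephalin peptides, at a distance of 0.73 against a median of 1.64 over the named genes. Next came LOC615277 at 1.198 and NUPR1, a small nuclear protein induced by stress, at 1.198. PENK, taken as the geometric mean of 4 clones, was at 29.5 in pregnant 316, at 46.7 in 426, at 73.5 in 447 and at 38.8 in 448, against 9.33 in control 434, 9.08 in 330, 6.72 in 404, 2.48 in 449, 1.01 in 427 and 0.810 in 440. The 6 controls thus stood in the same order for PENK as for FABP3, apart from the tie of 330 and 434 in FABP3. Low values in controls 427 and 440 are not particular to FABP3 and PENK. LOC615277 had 1.13 in 427 and 0.89 in 440, against 4.49 to 13.97 in the other controls. MEP1B had 0.34 and 0.37, against 0.39 to 0.98. Controls 427 and 440, lowest for FABP3 and PENK, were 22 months old, and all other animals were 17 to 20. With age as a covariate the log2 fold change was 3.66 for FABP3 and 3.22 for PENK. The part of age in this order was not tested. In pregnant animals the order differed, since 447 was the highest for PENK and the lowest for FABP3.

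The nearest named genes of PLET1 were ISG15, a ubiquitin-like interferon-induced protein, at a distance of 1.77, WIPF3, a protein that binds an actin regulator, at 1.87, and FABP3 at 1.95, and the median over the named genes was 2.88. WIPF3, like PLET1, was near the bottom of the scale in controls, with 0.01 to 0.34 against 0.65 to 1.70 in pregnant animals. Of all other clones, 8 were closer to PLET1 than ISG15 as a gene was, and 1 of these has no name; 4 clones were closer to DKK1 than IFIT3 was and 1 clone closer to FABP3 than PENK was, and 0 of these lack a name.

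**Figure D4:**
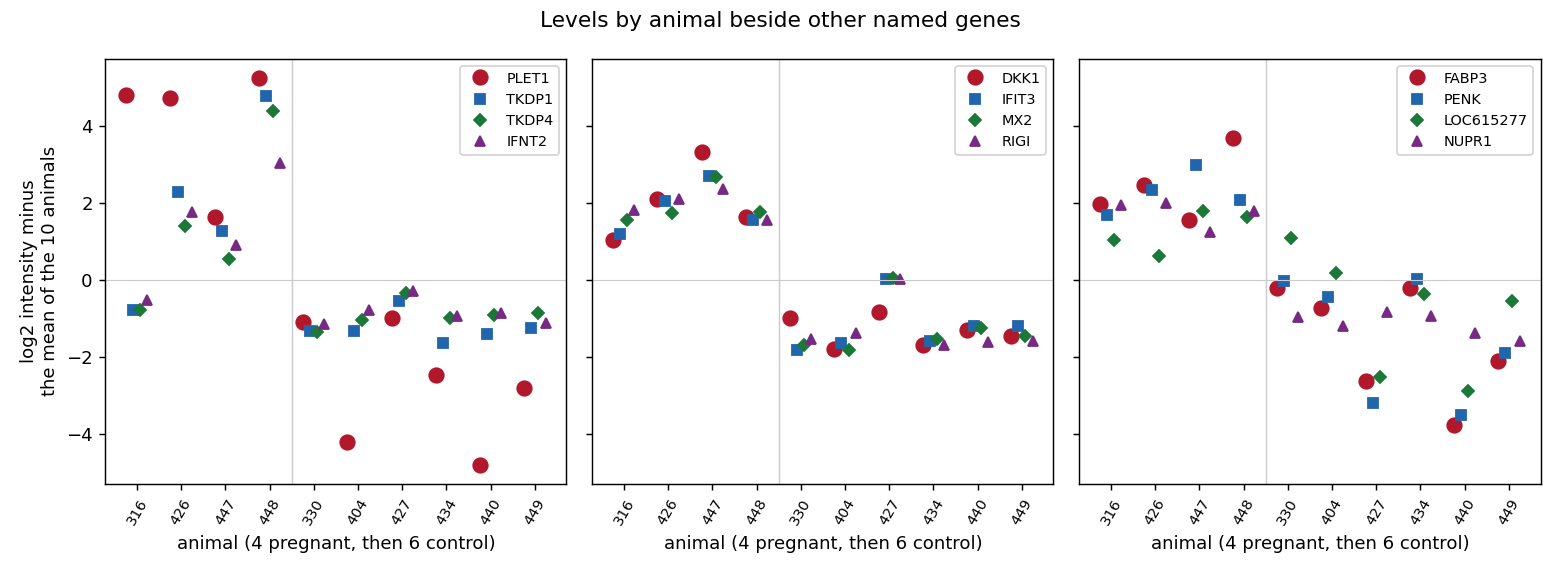
Log2 intensity, centred on the mean over the 10 animals, of PLET1 beside 3 trophoblast transcripts (left), of DKK1 beside its 3 nearest named genes (middle) and of FABP3 beside PENK, LOC615277 and NUPR1 (right), by animal. PLET1 is high in pregnant 316, where TKDP1, TKDP4 and IFNT2 lie below control 427 and above the other 5 controls; DKK1 and IFIT3 are both highest in pregnant 447; FABP3 and PENK are both lowest in controls 427 and 440.

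Few other genes of the pathway lists used here are named on the arrays. Of 57 genes of Wnt signalling, DKK1 is the only one with a name on the 18KB array, and 0 are named on the 18KO array. NDP, a secreted ligand that activates Wnt signalling through FZD4 and which was added after its values were seen, had a log2 fold change of -0.51 ± 0.42 (limma adjusted p = 0.252); it was called lower with equal column medians (-1.34) or quantile normalization (-1.35). Its intensity was 0.69 to 1.65 in pregnant animals, against 4.56 in control 427 and 1.05 to 1.94 in the other controls; without 427 the log2 fold change was -0.21. Of 47 genes of fatty acid uptake, binding and metabolism, FABP3 is the only one named on the 18KB array. The list leaves out SCP2, ACSS1 and PDK4, which also bear on lipid metabolism and are named there. SCP2 (log2 fold change 1.29) and ACSS1 (1.63) were called higher, and PDK4 (1.02) was not called. On the 18KO array, 2 others of the list carry a name. RBP4, on the list although known as the plasma carrier of retinol, was lower (-1.26 ± 0.37, limma adjusted p = 0.00568). FADS1, a fatty acid desaturase, had -1.15 ± 0.38 (limma adjusted p = 0.0106) and was not called. FADS1 was called lower with 1 scaling factor per animal from both arrays (-1.39) and with age as a covariate (-1.36). There 69.4% of the 72 named genes were called, and 20 to 33 genes in place of 50 without pregnant 316, 426 or 448 or control 440. The call of RBP4 was lost without any 1 of the pregnant animals or without control 434 or 440 (log2 -1.14 to -1.37), and with equal column medians (-0.93) or quantile normalization (-0.96).

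Of 35 genes of the epithelial surface, 2 besides PLET1 are named on the 18KB array, and both were called higher: LY6E, a membrane-anchored protein that interferons induce (2.26 ± 0.27, limma adjusted p = 1.22e-05), and MEP1B, the beta chain of the cell-surface protease meprin (2.26 ± 0.35, limma adjusted p = 5.68e-05). On the 18KO array the tetraspanin CD81 was called higher (1.35 ± 0.42, limma adjusted p = 0.00765), a call lost without any 1 of pregnant 316, 426 or 447 or of controls 330, 404, 427 or 440 (1.19 to 1.36) and with age as a covariate (1.10). Of 42 genes of uterine secretion, LGALS9, a secreted galectin (1.94 ± 0.35, limma adjusted p = 0.000180), and PENK (3.78 ± 0.69, limma adjusted p = 0.000219) are named on the 18KB array and were called higher; PENK was at 3.05 and not called without pregnant 426, pregnant 447 and control 427 together. Of 8 secretory genes named on the 18KO array, 1 was called higher (PENK, 3.20 ± 0.48, limma adjusted p = 5.69e-05), 4 lower, and 3 did not pass. Those lower included RBP4, given above, S100G, a calcium-binding protein (-1.40 ± 0.42, limma adjusted p = 0.00657), and GRP, the gastrin-releasing peptide (-1.16 ± 0.37, limma adjusted p = 0.00899). The call of S100G was lost without any 1 pregnant animal or control 440 (-1.34 to -1.48). That of GRP was lost without any 1 pregnant animal or control 330, 404, 434 or 440 (-0.91 to -1.32), with equal column medians (-0.83), quantile normalization (-0.82) or the brightest clone (-1.12). Of the 25 named interferon-stimulated genes on the 18KB array all were called higher, where 80.2% of the 86 named genes were, and their median log2 fold change was 2.56 where all named genes had 1.85. Those with the smallest p were ISG15, UBA7, PARP12 and IFI6 (log2 fold changes of 2.44 to 4.85). These counts are a description, since naming followed the differences in these animals.

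**Figure D5:**
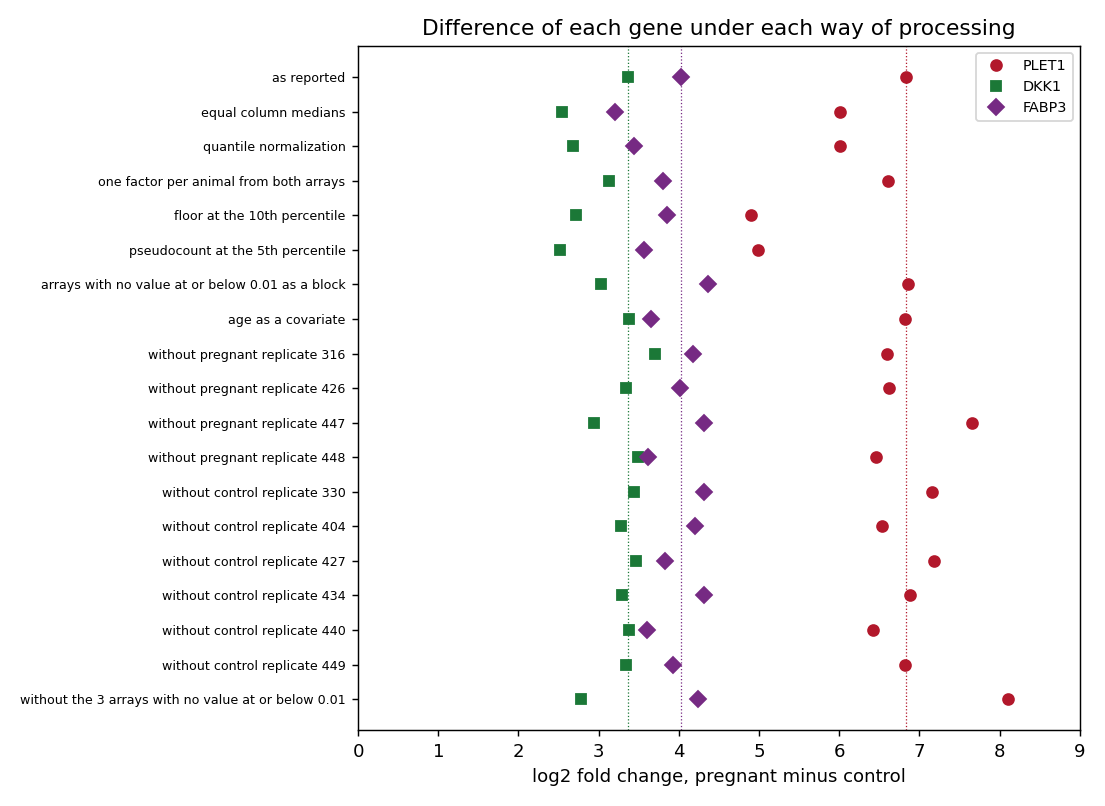
Log2 fold change (pregnant minus control) of PLET1, DKK1 and FABP3 as reported and under each alternative scaling, floor, model or left-out animal; dotted lines mark the values as reported. PLET1 runs from 4.90 to 8.11, FABP3 from 3.20 to 4.36 and DKK1 from 2.52 to 3.70, and no point is below 0.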

How the data were processed

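Endometrial RNA of 4 pregnant and 6 control heifers was hybridised to 2 arrays each (20 samples), per the labels. The deposited files hold linear spot intensity per clone and animal, with no background level per spot; the authors' background correction and scaling are not given in the sources used here. The number of animals limits the precision. Per the labels, pregnant 316 was hybridised again to the 18KO array together with 2 other samples, and its values were added through the ratios to them. Values below 0.01 were set to 0.01 before log2; clones of a gene were averaged. Of the 1536 clones of the 18KB array, 202 have 1 symbol in GEO's platform annotation, which can be old, 9 have several and 1325 none; 200 of the 202 keep their symbol in RefSeq (ARS-UCD2.0). The arrays were fitted with lmFit and eBayes of limma 3.58.1 in R 4.3.3, tested on simulated data, over all 1536 clones or all 86 (18KB) and 72 (18KO) named genes. A call needed a Benjamini-Hochberg adjusted p under 0.01 and a 2-fold change. Standard errors of fold changes are those of the limma fit of the named genes. There the variance of each gene is drawn toward that of all named genes, so they differ from errors computed from the SDs. p-values for PLET1, DKK1 and FABP3 are not given. Figures used matplotlib 3.10.9.

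The 3 genes and all gene lists were chosen with earlier results of these data known. Named besides the 3 are the 3 nearest named genes of each and, in each list, the 4 or fewer of smallest p. NDP, SCP2, ACSS1, PDK4 and the trophoblast genes by animal were added after values were seen. Settings were compared by the pooled SD of both groups. Alternatives were other scalings, floors, thresholds, priors and weights, a block, age, the brightest clone and leaving out animals. The sequences of the clones and genes were not used here.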

Additional observations from a re-analysis of the deposited data

Results flagged for a closer look

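PLET1 in pregnant 447 stood apart from the other pregnant animals: its log2 intensity was 0.78, against 3.89 to 4.41 in pregnant 426, 316 and 448. The gap to the nearest pregnant animal was 0.857 of the range of the group, above Dixon's critical value of 0.829 for 4 samples, which chance exceeds in about 1 of 20 groups; 6 groups of values were examined. The other 5 held no such value. DKK1 had its highest value in the same animal (5.14).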

How the results depend on the processing

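PLET1, DKK1 and FABP3 kept a positive difference under every scaling, floor, model and left-out animal tried. Leaving out 1 animal gave 6.42 to 7.66 for PLET1, 2.94 to 3.70 for DKK1 and 3.60 to 4.32 for FABP3. PLET1 moved by more than its pooled SD over both groups (1.60) with a floor at the 10th percentile (4.90) and with a pseudocount at the 5th percentile (4.99). DKK1 moved by more than its pooled SD (0.66) with equal column medians (2.54), quantile normalization (2.68) and that pseudocount (2.52). Leaving out pregnant 426, pregnant 447 and control 427, a step chosen after seeing the data, gave 8.11 for PLET1, 2.78 for DKK1 and 4.23 for FABP3. Of the 18KB clones 326 were called, 264 to 346 without 1 animal, and 598 at an adjusted p of 0.05 with no fold minimum. Of the calls 315 were higher and 11 lower in pregnant animals, 152 and 174 with equal column medians, and 178 and 139 with quantile normalization. Of the named genes 78 were called, 51 with equal column medians and 75 to 77 without 1 animal. The causes were not tested. With a floor at the 10th percentile no correlation among controls could be computed, since all 6 controls have the floor value in PLET1 and DKK1. No paired analysis was possible because pregnant and control animals share no animal number.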

Other observations

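The clones are named by plate and well, and the sources used here do not say how wells map to places on the array. The PLET1 clone comes from well C08 of its plate. Wells B07 and D08, which touch it at a corner and at a side, hold clones of ISG15, with intensities of 60.52 to 95.97 and of 44.21 to 103.34 in pregnant animals, against 1.58 to 8.14 and 0.64 to 8.05 in controls. Both ISG15 clones were highest in pregnant 447, where PLET1 was lowest. The other 6 adjacent wells had log2 fold changes from 0.14 to 0.92. Wells C07 and C09, in the same row as PLET1, had 1.08 to 1.86 in pregnant and 0.90 to 1.82 in control animals. None of the 8 wells around DKK1 (0) or of the 8 around FABP3 (0) has a name, and their log2 fold changes ran from -0.50 to 1.20 and from -0.34 to 0.42.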
